A study of Mus musculus with 36 samples.

Results

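DNA replication and mitosis genes were followed in mouse liver as a list of 32 genes, chosen by name: the subunits of the replicative helicase and its loaders, the clamp and clamp loader of the replication fork, ribonucleotide reductase, the S phase and mitotic cyclins with Cdk1, and the kinases, motors and checkpoint proteins of mitosis. Of the 32, 31 had at least 1 named probe set on the array, 67 probe sets in all, and Ccnb1 (cyclin B1) is not analysed here. The probe set with the highest mean signal stood for each gene. By that probe set, 23 of the 31 genes passed the filter on low values and were tested among 12831 genes, and 8 lay near background.

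The study measured liver RNA from mouse lines with neural tube defects and from their wild type controls, 4 females in each of 9 groups, 1 array per mouse, at 6 to 8 weeks of age and after a fast of 4 to 5 hours. The heterozygous groups were Pax3Sp2H (splotch, a transcription factor), Lrp6Cd (crooked tail, a Wnt co-receptor), Apobtm1Unc (apolipoprotein B) and Vangl2Lp (loop tail, a planar cell polarity protein). The curly tail (ct) mice, of a closed colony bred at random, are all taken as ct/ct homozygotes in the sample labels, although the series description calls every mutant group heterozygous. C57BL/6J wild types (B6) served 2 mutant groups, Pax3 and Apob, as their control, CBA/CaJ wild types (CBA) were the control of the ct group, and wild types of the Lrp6Cd and Vangl2Lp strains the controls of their own heterozygotes. By their labels Pax3 and Lrp6Cd respond to dietary folic acid, whereas Apob, ct and Vangl2Lp are resistant to it. No Cre, transgene or treatment is named for any group, and the ct mice and their CBA/CaJ controls are different stocks.

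Replication begins when Cdc6 and Cdt1 load the ring of Mcm2 to Mcm7 onto DNA. The GINS complex then helps to turn that ring into a working helicase, Rfc4 is part of the loader of the sliding clamp Pcna, and Rrm1 and Rrm2 form the enzyme that makes deoxynucleotides. Cyclins E and A drive entry into and passage through S phase with Cdk2, and cyclins A and B with Cdk1 drive mitosis, in which Aurora kinases, Plk1, Bub1, Bub1b, Cdc20 and the motors Kif11 and Kif20a move and separate chromosomes. Genes of S phase are controlled through E2F sites, and many genes of mitosis through CCAAT boxes and the cell cycle homology region. Most hepatocytes of the adult liver are quiescent and divide again after injury or partial removal, while in the weeks after weaning some division remains. In RNA from whole liver pieces, more cells in cycle and more RNA per cycling cell cannot be told apart, and a cycling cell may be a hepatocyte or any other cell of the liver.

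The promoters of 4 members are printed because their genes stand for the different behaviours reported here: Mcm6 and Rrm2 for S phase, Mki67 and Ccnb2 for mitosis. Each window is 300 bases from RefSeq on GRCm38.p6, 250 before and 50 from the start of the gene, read 5′ to 3′ on the gene's strand. Capitals mark the E2F core (TTCCCGC or TTGGCGC), the CCAAT box (CCAAT) and the cell cycle homology region (TTTGAA or TTCGAA), each searched on both strands, so that a box on the other strand reads ATTGG.
Mcm6, chr1:128359656-128359955, minus strand: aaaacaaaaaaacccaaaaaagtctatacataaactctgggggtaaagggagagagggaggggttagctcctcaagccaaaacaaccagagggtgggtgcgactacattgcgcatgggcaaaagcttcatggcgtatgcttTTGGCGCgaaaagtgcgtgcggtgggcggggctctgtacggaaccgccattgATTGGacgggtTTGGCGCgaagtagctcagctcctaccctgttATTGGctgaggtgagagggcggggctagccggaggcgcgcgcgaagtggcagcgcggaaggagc
Rrm2, chr12:24708004-24708303, plus strand: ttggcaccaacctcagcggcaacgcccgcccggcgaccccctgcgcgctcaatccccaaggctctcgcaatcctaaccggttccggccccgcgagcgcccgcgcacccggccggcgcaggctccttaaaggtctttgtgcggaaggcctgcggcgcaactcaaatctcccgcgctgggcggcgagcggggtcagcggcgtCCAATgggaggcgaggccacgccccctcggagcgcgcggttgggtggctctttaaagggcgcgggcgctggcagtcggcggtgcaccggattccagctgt
Mki67, chr7:135716330-135716629, minus strand: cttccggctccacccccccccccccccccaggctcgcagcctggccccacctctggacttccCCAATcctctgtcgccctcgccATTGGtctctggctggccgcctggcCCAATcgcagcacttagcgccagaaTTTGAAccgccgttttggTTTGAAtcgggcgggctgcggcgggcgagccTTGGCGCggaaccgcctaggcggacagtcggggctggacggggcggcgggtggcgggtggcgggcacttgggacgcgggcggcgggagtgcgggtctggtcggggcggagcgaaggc
Ccnb2, chr9:70421505-70421804, minus strand: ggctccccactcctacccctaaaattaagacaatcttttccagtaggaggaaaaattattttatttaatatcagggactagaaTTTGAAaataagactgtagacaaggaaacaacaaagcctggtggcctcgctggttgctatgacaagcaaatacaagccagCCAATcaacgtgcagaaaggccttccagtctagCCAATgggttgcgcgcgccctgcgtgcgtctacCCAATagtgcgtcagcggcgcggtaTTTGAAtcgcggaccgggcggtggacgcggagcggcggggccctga

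The Mcm6 window held 2 E2F cores and 2 CCAAT boxes, the Rrm2 window 1 CCAAT box, the Mki67 window 1 E2F core, 3 CCAAT boxes and 2 homology regions, and the Ccnb2 window 3 CCAAT boxes and 2 homology regions. Promoters of 25 members were in the RefSeq table, that of Ccnb1 included. Among the 12 of replication, nucleotide reduction and cyclin E, 8 (66.7%) held an E2F core, against 3 of the 13 mitotic members (23.1%) and 6.93% of all 27025 promoters. The homology region was found in 10 of the 13 mitotic members (76.9%), in 2 of the other 12 (16.7%) and in 19.4% of all promoters. The CCAAT box was found in 84.6% of the mitotic members, 66.7% of the others and 37.9% of all promoters. A CCAAT box on the other strand can share letters with TTGGCGC, and an E2F core overlapped another motif 141 times over all promoters. These matches describe the letters of a window of fixed length and are not tested binding sites.

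With all arrays at 1 trimmed mean, the median signal was 85.7 to 119 on 35 arrays and 144 on Vangl2Lp replicate 4. RNA quality was read from GAPDH, whose 3′ over 5′ signal was 0.729 to 0.956 on 34 arrays, 52.5 on CBA replicate 4 and 1.72 on ct replicate 3. The ct comparison and the tests across groups are given with and without the last pair. The hepatocyte markers Alb and Ttr were high on every array (lowest signals of Alb 34620 and of Ttr 41797).

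The 8 members near background were Cdc6 and Gins2 of the replication fork, the motors Kif11 and Kif20a, and the kinases Aurkb, Bub1, Bub1b and Plk1. The filter corresponds to a signal of 68.2, and their medians over 36 arrays lay below it, from 12.4 (Cdc6) to 65.3 (Kif11). Differences in these genes are close to the noise of the array and are given as values only. Among the tested genes with weak signal, Ccnb2 passed 68.2 on 22 of 36 arrays, Birc5 on 24, and Mki67, Aurka and Nusap1 on 28 each. All 36 arrays passed it for the helicase subunits Mcm2, Mcm3, Mcm4, Mcm5 and Mcm7, for Pcna, Rfc4, Gins1 and Cdt1, and for Rrm2.

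Over the 36 livers the strongest departure in these genes belonged to 1 mouse, not to a line. Pax3 replicate 3 had the highest signal of all 36 arrays for 16 of the 23 tested members, while 7.47% of all genes were highest on that array. Across the 23 genes, its log2 values lay 1.31 above the 36-array means on average, against -0.46 to 0.56 on the other 35 arrays and 0.07 over all genes on the same array. The other 3 Pax3 livers had -0.02, 0.23 and -0.21, and the B6 controls -0.18, 0.32, 0.05 and -0.16, so that those 3 livers overlapped the controls. After centring every array on its median, the value of Pax3 replicate 3 was 1.16.

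**Figure D1:**
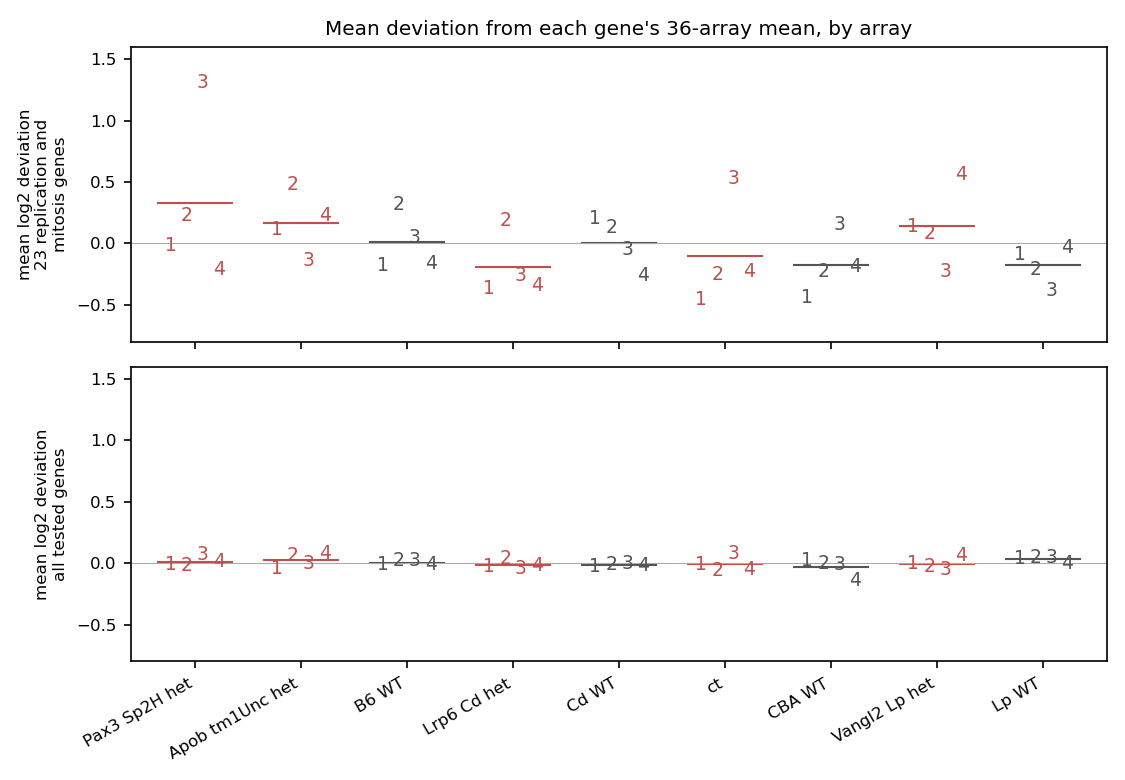
Mean log2 deviation from each gene's mean over 36 arrays (y axis), for the 23 tested replication and mitosis genes (top) and all tested genes (bottom), by group (x axis). Digits are single arrays, named by replicate number, red for mutant and grey for control, and lines are group means. Pax3 replicate 3 sits at 1.31 in the top panel, and the next highest is Vangl2Lp replicate 4 at 0.56.

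Among the tested genes, Ccnb2, Birc5, Cdc20 and Mki67 stood furthest above the mean of the other Pax3 livers on that array. Their log2 differences were 3.52, 3.05, 2.38 and 2.27. The helicase gene Mcm5 (2.22) followed, above Top2a (1.74), Nusap1 (1.46) and Aurka (1.03). The lowest Ccnb2 and Birc5 values of the other Pax3 livers, 11.9 and 19.2, lay below the filter signal of 68.2. Ccnb2, a partner cyclin of Cdk1, read 56.0, 107, 790.5 and 11.9 in Pax3 replicates 1 to 4 and 112 to 162 in the B6 controls. Mki67, the proliferation marker Ki-67 that coats mitotic chromosomes, read 94.6, 156, 559.9 and 60.01, against 55.1 to 243 in B6. Birc5 (survivin, of the chromosomal passenger complex) read 57.8, 85.8, 574 and 19.2, against 11.98 to 121 in B6. In each of these genes replicate 3 was high and the other 3 Pax3 livers were at or below the upper B6 values. Cdc20, which activates the anaphase-promoting complex, read 642 against 50.7 to 249 in the other Pax3 livers, and Top2a, the topoisomerase that untangles chromosomes, 401.5 against 59.9 to 181. Aurka, the Aurora kinase of the spindle poles, read 262 against 103 to 134, and Nusap1, a spindle-associated protein, 345 against 88.7 to 123.

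The helicase genes were high in the same liver. Mcm2 read 1031 on Pax3 replicate 3 against 296 to 503.7 in the other Pax3 livers, Mcm3 617 against 239 to 269, and Mcm5 605 against 74.2 to 189.7. Mcm6 read 1043 against 304.5 to 352, Mcm4 661 against 168 to 328, and Mcm7 1659 against 734 to 1139. All 6 subunits of the ring had their highest signal of 36 arrays in this liver, as did Cdt1 (1282 against 497 to 618), Ccna2 (399 against 72.8 to 154) and Cdk1 (526 against 150.5 to 229). Of the members near background, Gins2 (322.5), Aurkb (199), Kif20a (213) and Plk1 (257) also had their highest signal there. By the probe sets that stood for them, Cdc6 (80.4) ranked 2 of 36, and Bub1 (32.3), Bub1b (58.2) and Kif11 (65.5) ranked 16, 17 and 18. The other probe sets of Bub1 (164), Bub1b (175 and 32.1) and Kif11 (138 and 209) were the highest of 36 in this liver. Their mean signals were also below the filter. Over all 67 probe sets of the list, 39 were highest on this array.

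Not every member was extreme in that liver. By the probe sets that stood for them, Pcna (3681), Rfc4 (377), Rrm1 (439) and Rrm2 (788.5) were above the other Pax3 livers but not the highest of 36. A second Rrm1 probe set, above the filter, was the highest of 36 in that liver (439.3). Gins1 (213), Ccne1 (235) and Ccne2 (115) lay among the other Pax3 livers. By role, and over tested genes only, medians were taken of the log2 difference of replicate 3 from the mean of the other 3 Pax3 livers. The median was 2.00 over 4 chromosome and spindle genes, 1.70 over 2 mitotic kinase and checkpoint genes, and 1.40 over 5 cyclin and Cdk1 genes. It was 1.18 over 10 fork genes and 0.38 over Rrm1 and Rrm2. Over the 23 members 21 differences were positive with a median of 1.34, against 56.4% positive and a median of 0.06 over all genes. Replicate 3 was the highest of its group for 20 of the 23, against 34.8% of all genes.

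**Figure D2:**
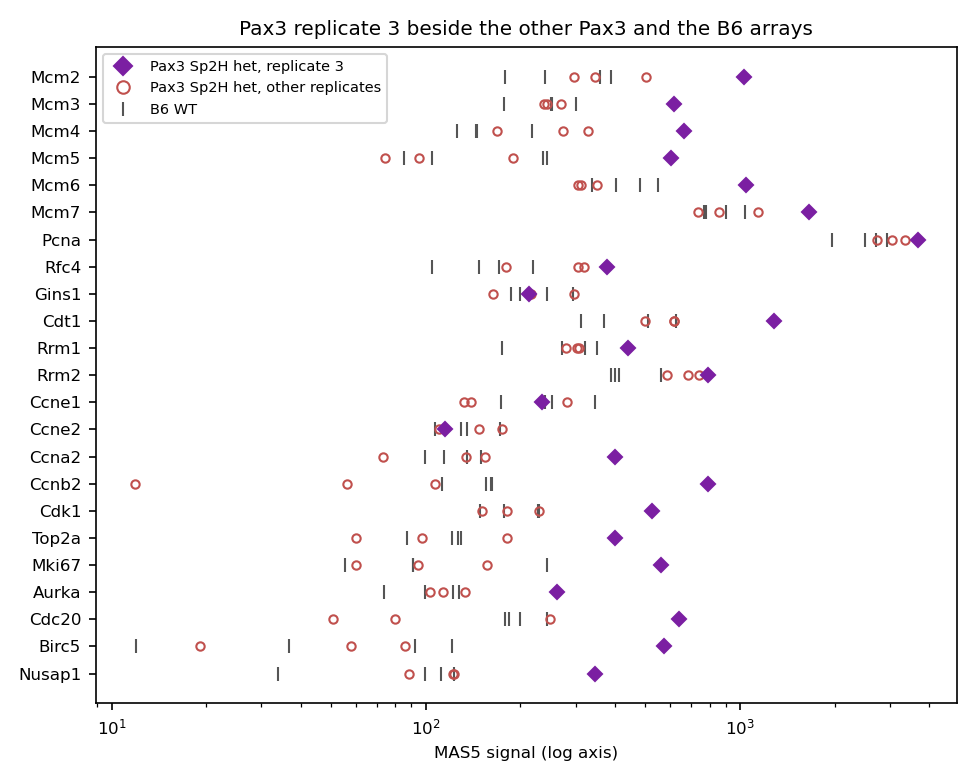
MAS5 signal (x axis, log scale) of the 23 tested genes (rows) in Pax3 replicate 3 (purple diamonds), the other 3 Pax3 livers (open circles) and the 4 B6 controls (vertical ticks). In rows such as Ccnb2 (790.5) and Mki67 (559.9) the diamond lies to the right of every other mark, while Gins1 and Ccne2 lie among them.

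Markers of other cells also differed in that liver, and their part in the result was not tested. The summed signal of the 6 stellate cell and matrix markers was 28286, against 11399 to 12880 in the other Pax3 livers and 10334 to 20705 over the other 35. Within that list Col1a1 and Col3a1, which encode fibrillar collagens, read 1026 and 11305 and were the highest of 36, against 13.7 to 121 and 1367 to 2526 in the other Pax3 livers. The summed signal of the 7 hepatocyte markers was 211834, the lowest of 36, with 0 of 7 above the other Pax3 livers' mean, against 251282 to 269576 in those livers. The 12 lymphocyte markers summed to 3789 (other Pax3 livers 1872 to 2302), the 11 macrophage markers to 43052 (27436 to 34034) and the 7 neutrophil markers to 1177 (629.5 to 744). Over the other 35 arrays these sums ran from 1187 to 8185, from 16520 to 110449 and from 456 to 62928. The 6 endothelial markers summed to 7465, below the 8303 to 9124 of the other Pax3 livers, the 4 cholangiocyte markers to 454 (243 to 338) and the 8 erythroid markers to 1451 (1184 to 1588). Counted singly, 4 of the 6 endothelial and 6 of the 8 erythroid markers were above the other Pax3 livers' mean, although the endothelial sum was lower. None of these markers was at 0 on that array. The ratio of 3′ to 5′ GAPDH signal was within the range of the 34 arrays.

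Other cell cycle genes were read on the same array from a longer list of 85 that shares no gene with the first, of which 66 were tested. There 48 of 66 lay above the mean of the other Pax3 livers, 20 were the highest of 36, and the median log2 difference was 0.46. Of 18 regulators of G1, the phase before replication, 6 were the highest of 36. Among them were Ccnd1 (cyclin D1) at 9435 against 2568 to 7129 in the other Pax3 livers and the cell cycle inhibitor Cdkn1a (p21) at 1486 against 98.3 to 531, genes singled out after their values were seen.

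Smaller departures in the same direction were largest on 3 further arrays. Other groups, controls included, also had a leading array. B6 replicate 2 (mean deviation 0.32) was the highest of its group for 14 of 23 members, against 21.1% of all genes. For Lrp6Cd heterozygote replicate 2 (0.19) the count was 14 (32.0%). It was 12 for Lrp6Cd wild type replicate 1 (0.2, 22.0% of all genes) and 12 for CBA replicate 3 (0.15, 17.9%). Vangl2Lp replicate 4 had a mean deviation of 0.56 over the 23 genes and was the highest of its group for 16 of 23, against 34.1% of all genes. Its value was 0.27 after median centring. Against the mean of the other 3 heterozygotes, 9 of 9 tested lymphocyte markers were higher on that array (median log2 difference 0.69, against 0.63 over the 23 members), as were 10 of 11 macrophage markers (0.22) and 5 of 6 stellate markers (0.49). The 3′ over 5′ signal of actin was 2.93 on that array and 1.88 to 2.46 on the other 3. There Ccnb2 read 334 against 105 to 256 in the other Vangl2Lp heterozygotes, Birc5 320.0 against 79.7 to 159 and Mcm2 549.9 against 194 to 270, while Mcm3 and Pcna were the lowest of the group. Replicate 3 of ct, with its doubtful RNA, had a mean deviation of 0.53, and its neutrophil and macrophage marker sums (62928 and 110449) were the highest of 36. Apob replicate 2 had 0.48, with Ccnb2 at 253 against 14.7 to 105 and Birc5 at 247 against 13.8 to 139.7 in the other Apob livers, and the fork genes showed no such shift (median log2 difference -0.08 over 10 genes, against 1.00 over 4 spindle genes). The part of cell composition and RNA quality in these arrays was not tested.

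**Figure D3:**
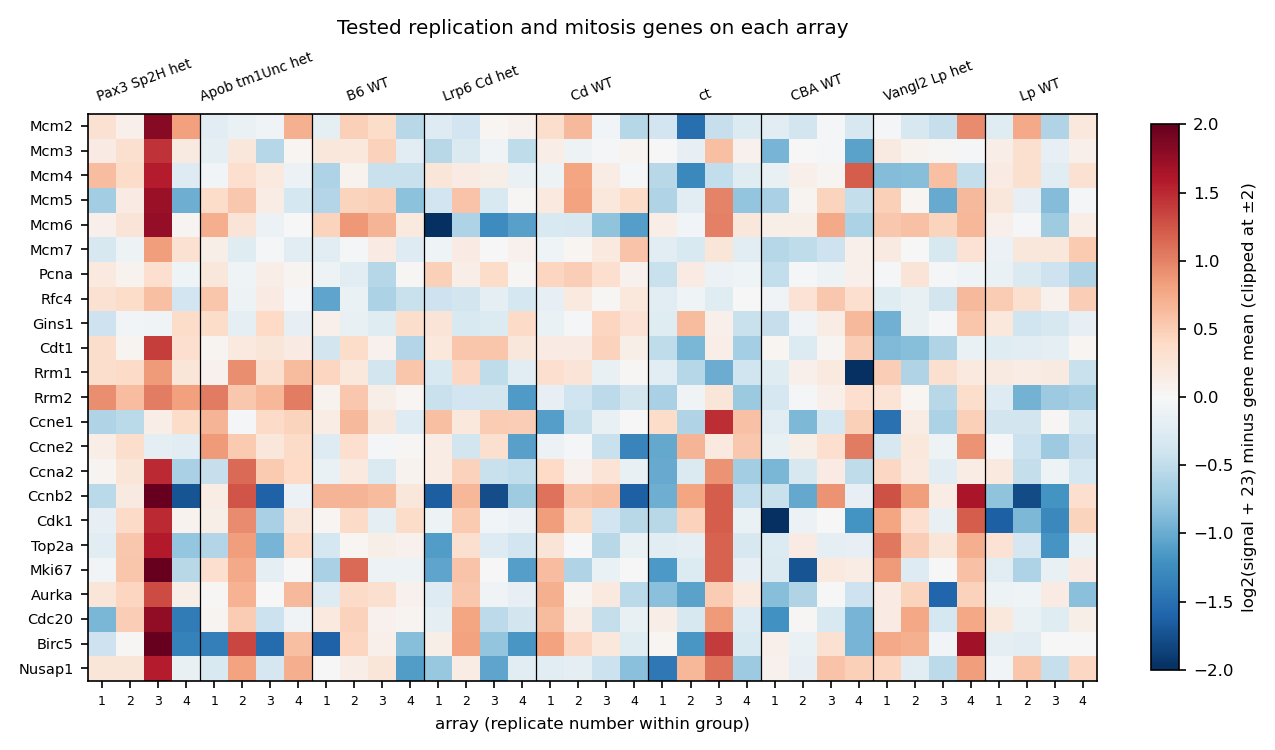
Log2(signal + 23) minus each gene's mean over 36 arrays (colour, clipped at 2 in either direction) for the 23 tested genes (rows) on each array (columns, by group and replicate number). In the column of Pax3 replicate 3, 21 of the 23 genes lie above their means, all but Gins1 and Ccne2. Ccnb2 and Birc5 vary most between arrays of a group.

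Variation between mice of a group was large for these genes. The SD within groups, on the log2 scale, had a median of 0.54 over the 23 members and 0.36 over all genes tested. Ccnb2 (1.10) exceeded 99.8% of all genes, Birc5 (0.97) 99.5%, Mki67 (0.76) 97.4% and Cdk1 (0.69) 95.0%. At the other end Pcna (0.21) exceeded only 5.81% of all genes, and Mcm7 (0.28), Rfc4 (0.29) and Rrm2 (0.31) were also below the median of all genes. Ccnb2 and Birc5 lie near the filter, while Mcm5 (0.67, above 94.2% of all genes) passed it on all 36 arrays. The part of weak signal in this spread was not tested. Without Pax3 replicate 3 and the pair of arrays with doubtful RNA the medians were 0.48 and 0.29. Without only the doubtful pair, the SD of Rrm1 dropped from 0.58 to 0.34, as Rrm1 read 13.1 on CBA replicate 4.

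Each line was next compared with its own control with limma, and p-values were adjusted over all 12831 genes by the Benjamini-Hochberg method. These p-values rest on the spread between mice of the same group, pooled over all 9 groups. The labels call the 4 mice of a group biological replicates. No member was called in any of the 5 comparisons. Of all genes, 0.0% were called in the Pax3 comparison, 0.0% in Lrp6Cd, 0.553% in Apob, 7.09% in ct and 0.0312% in Vangl2Lp. At an unadjusted p below 0.05 the counts were 6 of 23 members in Pax3 (5.36% of all genes), 2 in Lrp6Cd (2.1%), 2 in Apob (11%), 4 in ct (24.6%) and 5 in Vangl2Lp (7.17%).

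**Figure D4:**
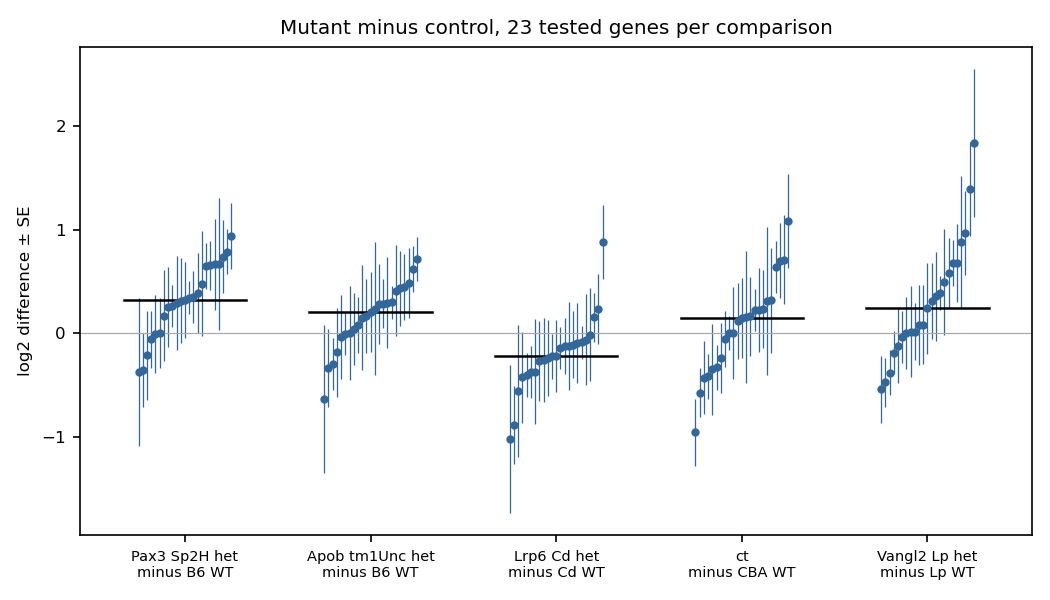
Log2 difference of mutant minus control (y axis) for the 23 tested genes, sorted within each of the 5 comparisons (x axis). Points are limma estimates, vertical bars are standard errors, and horizontal bars are medians over the 23 genes, 0.32 for Pax3, 0.21 for Apob, -0.22 for Lrp6Cd, 0.15 for ct and 0.24 for Vangl2Lp.

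In Pax3 heterozygotes the list leaned upward, and less so without replicate 3. Of 23 genes 18 had a positive difference, with a median of 0.32 against 0.01 over all genes. Without replicate 3, 12 of 23 were positive and the median was 0.05. That array had been singled out as the highest of its group for 20 of these genes, so some fall was fixed in advance. The smallest p belonged to Rfc4, the clamp loader subunit. It read 305, 318, 377 and 179.9 in the Pax3 livers and 105, 219.8, 148 and 171 in the B6 livers, so that 3 Pax3 livers lay above every control and the groups overlapped. The log2 difference was 0.79 ± 0.21 (SE, limma, n = 4 per group; adjusted p = 0.612) and 0.66 without replicate 3. A second Rfc4 probe set gave 0.33 ± 0.26.

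Rrm2, the regulated subunit of ribonucleotide reductase, was the one tested member whose Pax3 and B6 values did not overlap (5.49% of all genes did not). It read 742, 587, 788.5 and 682 in the Pax3 livers and 399, 559.7, 411 and 389 in the B6 livers. The log2 difference was 0.65 ± 0.22 (limma, adjusted p = 0.789) and 0.59 without replicate 3. Here all 4 Pax3 livers were above the controls, unlike the mitotic genes. The other Rrm2 probe sets gave 0.64 ± 0.32, again without overlap (267 to 341.5 against 153 to 228), and 0.43 ± 0.34. Mcm4 read 328, 273, 661 and 168 against 126, 217, 145 and 145, a difference of 0.94 ± 0.32 (limma, adjusted p = 0.789) that was 0.60 without replicate 3 and 0.28 ± 0.35 by its second probe set. Cdt1 (0.66), Mcm2 (0.74) and Pcna (0.34) were the other members with an unadjusted p below 0.05.

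In Apob heterozygotes, compared with the same 4 B6 livers, Rfc4 and Rrm2 again had the smallest p. Because the controls are shared, the pair of comparisons is not independent. Rfc4 read 368, 225, 274 and 238, all above the highest control at 219.8, with a log2 difference of 0.72 ± 0.21 (limma, adjusted p = 0.131). Rrm2 read 798, 560.1, 612 and 788 against a highest control of 559.7, a difference of 0.62 ± 0.22 (limma, adjusted p = 0.220). The margin between the lowest Apob and the highest B6 value was narrow in both genes. The other probe sets gave 0.21 ± 0.26 for Rfc4, and 0.62 ± 0.32 and 0.75 ± 0.34 for Rrm2. Pcna read 3424, 2732, 3192 and 3004 against 2708, 2496, 1959 and 2942, overlapping groups with a difference of 0.30 ± 0.16 (limma, adjusted p = 0.521).

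Rfc4 and Rrm2 were thus 2 of 23 tested members without overlap in the Apob comparison, where 9.52% of all genes showed none. Bub1, near background, also did not overlap (37.9 to 71.0 against 9.53 to 26.8). Over the 23 members 17 differences were positive, with a median of 0.21 against 0.02 over all genes. The mitotic genes Top2a (-0.04 ± 0.41), Cdk1 (0.01 ± 0.45) and Ccnb2 (-0.63 ± 0.71) had differences smaller than their standard errors.

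In Lrp6Cd heterozygotes 20 of 23 differences were negative, with a median of -0.22 against 0.01 over all genes. Mcm6 read 13.9, 181, 108 and 124 in the heterozygotes and 231, 229.8, 157 and 123 in the wild types, a difference of -0.88 ± 0.38 (limma, adjusted p = 1.0) that overlapped and was drawn down by replicate 1. A second Mcm6 probe set gave -0.57 ± 0.35. Both Lrp6Cd strain groups were low for Mcm6: their means were 107 ± 69.4 and 185 ± 54.0 (SD, n = 4), against 273 to 503 in the other 7 groups, and 68.7 and 118 against 139 to 290 by the second probe set.

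Ccne1 (cyclin E1) had the opposite sign. It read 333, 250.2, 311 and 308 in the Lrp6Cd heterozygotes and 86.3, 149.7, 188 and 212 in the wild types, without overlap, and differed by 0.88 ± 0.36 (limma, adjusted p = 1.0). Its second probe set gave 0.89 ± 0.46. Rfc4 read 177, 181, 207 and 184 against 213, 282, 246 and 282, lower without overlap, by -0.40 ± 0.21 (limma, adjusted p = 1.0). That made 2 of 23 tested members without overlap, against 3.11% of all genes. Ccnb2 had the most negative difference (-1.01 ± 0.71), with a wider error than Mcm6 or Ccne1.

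In the ct comparison the lean of the list depended on the arrays with doubtful RNA. With all arrays 15 of 23 differences were positive and the median was 0.15, and without ct replicate 3 and CBA replicate 4 the count was 8 of 23 and the median -0.15. Mcm4 read 133, 71.1, 140.2 and 169.9 in ct livers and 183.5, 223, 215 and 510.2 in CBA livers, the one tested member without overlap (7.05% of all genes). Its difference was -0.95 ± 0.32 (limma, adjusted p = 0.0626), and -0.70 ± 0.34 (limma, adjusted p = 0.358) without the doubtful pair, the highest CBA value being that of replicate 4. It was called without Pax3 replicate 3 (0.0430), CBA replicate 1 (0.0399) or Vangl2Lp heterozygote replicate 3 (0.0444), arrays that enter through the shared estimate of spread or the control mean. The second Mcm4 probe set gave -0.08 ± 0.35, with group means of 209 and 221.

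Mcm3, another subunit of the ring, had the opposite sign, with 209.6, 187, 333 and 226 in ct livers and 99.8, 212, 207 and 88.5 in CBA livers. The difference was 0.64 ± 0.25 (limma, adjusted p = 0.105), and 0.29 ± 0.26 (limma, adjusted p = 0.690) without the doubtful pair, which held the highest ct and the lowest CBA value. Mcm3 was called without CBA replicate 2 (0.0430) or 3 (0.0480). Cdt1, the helicase loader, read 332, 243, 531 and 291 against 494, 392, 502 and 683, a difference of -0.57 ± 0.24 (limma, adjusted p = 0.124) and -0.64 ± 0.24 (limma, adjusted p = 0.193) without the pair. The differences of Mcm3 and Mcm4, parts of 1 complex, thus had opposite signs by the probe sets that stood for them. By their second probe sets both were smaller than their standard errors, 0.10 ± 0.39 for Mcm3 and -0.08 ± 0.35 for Mcm4.

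In Vangl2Lp heterozygotes the smallest p-values belonged to Rrm2, Cdk1, Ccnb2, Pcna and Top2a, in that order. Rrm2 read 460.2, 387, 249.6 and 485 against 311, 184, 219 and 228.5 in the wild types, a difference of 0.68 ± 0.22 (limma, adjusted p = 0.415). Cdk1, the mitotic kinase, read 312, 222, 152 and 429 against 39.4, 81.3, 56.7 and 241, a difference of 1.39 ± 0.45 (limma, adjusted p = 0.415). Ccnb2 read 256, 182, 105 and 334 against 43.2, 10.4, 27.5 and 123, a difference of 1.83 ± 0.71 (limma, adjusted p = 0.575). In the last pair wild type replicate 4 was the only control that reached the heterozygotes' range. Top2a differed by 0.97 ± 0.41 and Pcna by 0.39 ± 0.16, both with a limma adjusted p of 0.580. Of the other genes of mitosis, Birc5 differed by 0.88 ± 0.64. Cdc20 (0.36 ± 0.43), Mki67 (0.495 ± 0.506), Aurka (0.09 ± 0.38) and Nusap1 (0.02 ± 0.44) had differences below their standard errors. A second Cdc20 probe set gave 0.91 ± 0.53.

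Pcna (2875, 3500, 2819 and 2725 against 2640, 2376, 2174 and 1911) and Mcm6 (433, 449, 407 and 475 against 313, 287, 170.0 and 323) were the 2 tested members without overlap in this line, against 5.81% of all genes. Kif20a, near background, did not overlap either (48.9 to 136 against 14.8 to 42.2). The Mcm6 difference was 0.68 ± 0.38, and its second probe set gave -0.03 ± 0.35. Over the 23 members 17 were positive with a median of 0.24, against -0.03 over all genes, and without replicate 4 of the heterozygotes 13 were positive with a median of 0.05. Cdk1 and Ccnb2 kept differences of 1.17 and 1.61 without that array.

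A test across lines asked whether the mean effect of the responsive lines (Pax3 and Lrp6Cd) differed from that of the resistant lines (Apob, ct and Vangl2Lp). None of the 23 members was called by limma (0.148% of all genes were), and 4 had an unadjusted p below 0.05 (11.1% of all genes). The smallest p was that of Cdt1, with a difference of 0.66 ± 0.19 (limma, adjusted p = 0.166) and 0.52 without Pax3 replicate 3. Its effects were 0.66 in Pax3, 0.16 in Lrp6Cd, 0.29 in Apob, -0.57 in ct and -0.47 in Vangl2Lp. By this probe set Apob thus lay between the responsive lines and not with the other resistant ones. A second Cdt1 probe set gave 0.10 ± 0.21, with effects of 0.45 in Apob, 0.13 in Pax3 and 0.04 in Lrp6Cd. Mcm4 differed by 0.76 ± 0.26 (limma, adjusted p = 0.233) and Mcm6 by -0.64 ± 0.31 (limma, adjusted p = 0.439). A second probe set gave 0.23 ± 0.29 for Mcm4, and for Mcm6 0.22 ± 0.29, of the opposite sign. Without the doubtful pair the differences of the first probe sets were 0.68 ± 0.18 for Cdt1 (limma, adjusted p = 0.0673), 0.68 ± 0.25 for Mcm4 (0.199) and -0.48 ± 0.30 for Mcm6 (0.486).

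When the 5 effects were compared with each other by limma's moderated F test, Rfc4 was called (adjusted p = 0.0295), 1 of 23 members against 2.56% of all genes. At an unadjusted p below 0.05 there were 5 members, against 17.3% of all genes. Its effects were 0.79 in Pax3 and 0.72 in Apob, and -0.40, -0.41 and -0.38 in Lrp6Cd, ct and Vangl2Lp. The pair of positive effects shares the B6 livers, which read lowest of the control groups. The call was lost without B6 replicate 1 (adjusted p = 0.113), the lowest of all 36 arrays for Rfc4, and without B6 replicate 3 (0.0691), Pax3 replicate 2 (0.0507) or Apob replicate 3 (0.0503). It was also lost with quantile scaling (0.0828) or median centring (0.0725) of the arrays. The second Rfc4 probe set gave a limma adjusted p of 0.731 when every probe set was tested. By that probe set the effects were 0.326 in Pax3, 0.213 in Apob, -0.179 in Lrp6Cd, -0.265 in ct and 0.315 in Vangl2Lp. The sign in Vangl2Lp was thus opposite to that of the first probe set. Rrm2 (adjusted p = 0.0827) and Mcm4 (0.0860) followed in the limma F test. Rrm2 was called without ct replicate 3 (0.0368) or Vangl2Lp heterozygote replicate 3 (0.0362), and Mcm4 without Pax3 replicate 4 (0.0314) or that same Vangl2Lp liver (0.0318). Without the doubtful pair Rrm2 (0.0370) and Cdt1 (0.0432) were called beside Rfc4 (0.0272).

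The control groups differed from each other in 3 of 23 members by limma's F test, and 11.1% of all genes were called. At an unadjusted p below 0.05 there were 7 members, against 27.5% of all genes. Rfc4 (adjusted p = 0.0104) averaged 317 ± 44.1 in Vangl2Lp wild types, 301 ± 54.1 in CBA, 256 ± 33.3 in Lrp6Cd wild types and 161 ± 47.9 in B6 (SD, n = 4). Neighbouring groups in that order overlapped, B6 included (105 to 219.8 against 213 to 282), and without B6 replicate 1 the adjusted p was 0.0821. Pcna (adjusted p = 0.0147) averaged 3698 ± 450 in Lrp6Cd wild types, 2694 ± 454 in CBA, 2526 ± 420 in B6 and 2275 ± 309 in Vangl2Lp wild types. The Lrp6Cd wild types led, and their lowest value (3082) lay just under the highest CBA value (3124). Without replicate 1 or 2 of these wild types the Pcna adjusted p was 0.0586 or 0.0691.

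Rrm2 (adjusted p = 0.0273) averaged 440 ± 80.5 in B6, 387 ± 77.3 in CBA, 289 ± 33.6 in Lrp6Cd wild types and 236 ± 53.8 in Vangl2Lp wild types. Neighbouring groups overlapped for Rrm2 as well. The call was lost without B6 replicate 2 (adjusted p = 0.0742) or without Vangl2Lp wild type replicate 2 (0.0822), 3 (0.0621) or 4 (0.0538). Each order belongs to 1 probe set: the other probe sets of Rfc4 (adjusted p = 0.557) and of Rrm2 (0.777 and 0.536) were not called among control groups when every probe set was tested with limma, and Pcna has only 1. Without the doubtful pair, Rfc4 (0.0114), Pcna (0.00566) and Rrm2 (0.0163) were called by limma and Mcm7 (0.0314) was called as well. Strain and line cannot be told apart in these groups.

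**Figure D5:**
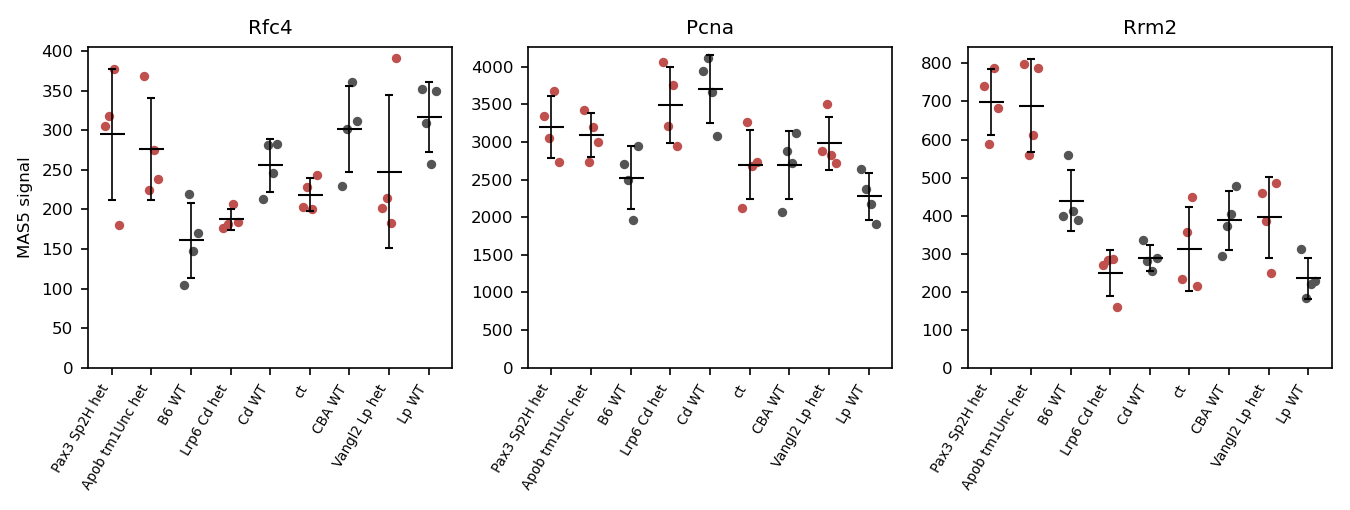
MAS5 signal (y axes, from 0) of Rfc4, Pcna and Rrm2 in the 9 groups (x axes). Points are single livers, red for mutant and grey for control, horizontal bars are means and vertical bars are SDs over 4 livers. Rfc4 is lowest in B6 (161 ± 47.9), Pcna highest in the Lrp6Cd strain groups, and Rrm2 highest in Pax3 (699.9 ± 86.8) and Apob (689 ± 121).

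Genes with more than 1 probe set were also checked against themselves. Besides the probe set that stood for each gene, 16 others passed the filter. Their difference had the same sign in 13 of 16 cases in Pax3, 11 in Lrp6Cd, 10 in Apob, 11 in ct and 9 in Vangl2Lp. The probe sets that stood for Mcm2, Mcm3, Mcm4, Mcm5, Mcm7, Rrm2 and Ccne1 carry the suffix _s or _x, given to designs whose probes can match more than 1 transcript, and their values are uncertain to that extent.

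The longer list of cell cycle genes, 66 of them tested, gave few calls with limma. In Apob heterozygotes Smc4, a condensin subunit that compacts chromosomes, fell by 1.08 ± 0.21 (adjusted p = 0.00742), from 971 to 1320 in B6 livers to 390 to 666.5. It was 1 of 66 genes, against 0.553% of all genes, and the median over the 66 was 0.05. In ct livers Mcm10, a replication initiation factor, fell by 0.87 ± 0.25 (adjusted p = 0.0294) and Pola1, the catalytic subunit of DNA polymerase alpha, by 1.11 ± 0.34 (adjusted p = 0.0390), 2 of 66 against 7.09% of all genes. Without the doubtful pair their adjusted p-values were 0.142 and 0.171. In Pax3, Lrp6Cd and Vangl2Lp heterozygotes 0 of 66 were called by limma, against 0.0%, 0.0% and 0.0312% of all genes. At an unadjusted p below 0.05 there were 4, 1 and 8 of 66 (6.06%, 1.52% and 12.1%), against 5.36%, 2.1% and 7.17% of all genes.

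Among the control groups 7 of the 66 were called by limma (11.1% of all genes were): Pttg1, Wee1, Spc25, Smc4, Cdc25a, Pola2 and Rpa3. Pttg1, which encodes securin, the inhibitor of the protease that separates sister chromatids, stood out by size. It averaged 8915 ± 1378 in B6 livers and 1959 ± 316, 1484 ± 586 and 1649 ± 453 in the Lrp6Cd, CBA and Vangl2Lp control groups (adjusted p = 1.56e-10). The Pax3 (7987 ± 1249) and Apob (8713 ± 872) livers were close to B6, and neither comparison called it. In this gene B6 stood apart, with no overlap between B6 (7926 to 10943) and any of the other 3 control groups (894 to 2359).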

How the data were processed

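Liver RNA (3 ug) of 36 mice was measured on 1-colour arrays with 45101 probe sets. The deposited values are linear MAS5 signal intensities, per the submitters' processing notes (version not given in the sources used here), and in the deposited tables the mean without the 2% of values at either end is 500 on every array. A log2 of signal + 23 was taken from the deposited intensities, which shrinks differences of weak genes. Of the probe sets, 34958 had 1 gene symbol, 932 several, 9147 none and 64 were controls. Each of 18194 symbols was represented by its probe set of highest mean, and genes with a mean above the 40th percentile (signal 68.2) were tested. One model with a mean per group was fitted to the 36 arrays (limma 3.58.1, R 4.3.3), the prior variance following the mean level. Tests are two-sided, a call is a Benjamini-Hochberg adjusted p below 0.05, and the moderated F test served for more than 1 difference. Python 3.11.15, pandas 2.3.3, numpy 2.4.6 and matplotlib 3.10.9 were used for counts, motifs and plots. The fit was checked on simulated data. Genes named are those with the smallest p in each comparison, those called, and those without overlap, and others were named after their values were seen. The members and lists were chosen with earlier results of these data known. The number of arrays limits the precision. Alternatives were other offsets, filters, scalings and array weights, every probe set, the 8 compared arrays alone, the replicate number as a block, and arrays left out. Scan batches were not analysed here.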

Additional observations from a re-analysis of the deposited data

Results flagged for a closer look

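For the 10 members with named results plus the mean of the list, the highest or lowest array of each group of 4 was compared with the nearest of the others. It is given here where that gap, as a share of the group's range, was above Dixon's critical value, which chance exceeds in about 1 in 20 groups. Of 99 groups 8 were past that value, and the share is in parentheses. The mean of the list was not past it in any group, the Pax3 group with its replicate 3 included. In the Pax3 group replicate 3 was far above the rest in Mcm6 (0.885) and Mcm3 (0.878). In the B6 controls replicate 2 was high in Rrm2 (0.852) and replicate 4 low in Ccnb2 (0.879). In the Lrp6Cd heterozygotes replicate 4 was low in Rrm2 (0.893) and replicate 2 high in Cdk1 (0.904). Replicate 3 of the Lrp6Cd wild types was high in Cdt1 (0.896), and replicate 3 of the Vangl2Lp wild types was high in Ccne1 (0.859).

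The effect on Rfc4 differed between the 5 lines by limma's F test (adjusted p = 0.0295). By the probe set that stood for it, differences were positive in the pair of lines compared with B6 and negative in the other 3. The call was lost in 8 of 49 alternatives, with a limma adjusted p of up to 0.113 (without B6 replicate 1). The second probe set had a limma adjusted p of 0.731 and a difference of the opposite sign in Vangl2Lp (0.315 ± 0.262).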

How the results depend on the processing

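The counts of called members were 0 in all 5 line comparisons and in the responsive against resistant test, 1 in the test of the 5 effects and 3 in that of the control groups. With array weights they were 1 in Apob, 1 in Vangl2Lp, 1 in responsive against resistant, 5 in the 5 effects and 5 in the controls. The count of the 5 effects was 0 with quantile scaling, median centring, no filter or every probe set, and 3 without the arrays of doubtful RNA. Without those and Pax3 replicate 3, an alternative chosen after seeing the data, it was 3, and the control count was 5. Leaving out 1 replicate at a time gave 0 to 0 in Pax3, Lrp6Cd, Apob, Vangl2Lp and the responsive test, 0 to 1 in ct, 0 to 3 in the 5 effects and 2 to 4 in the controls. The ct count was 1 without Pax3 replicate 3, CBA replicate 1, 2 or 3, or Vangl2Lp heterozygote replicate 3. With the replicate number as a block shared by all 9 groups, the counts were 0, 0, 0, 0, 0, 0, 1 and 3, as without it. The labels name a same-numbered control for each mutant, and a block for each such pair was not fitted. Deviations of same-numbered arrays correlated at -0.146 to 0.214, and in no comparison did every pair exceed 0.1, so the numbers were not taken to pair mice. In ct 3 of 4 pairs did (0.209, 0.214 and 0.115, with -0.023 for the other), and 3 of 4 ct arrays correlated best with their own number. In Lrp6Cd 3 of 4 heterozygote arrays also correlated best with their own number, and same-numbered arrays correlated at 0.008 to 0.094. Of 1760 alternatives for 36 results on single genes, 1726 kept direction and call, 15 lost the call, 16 gained it and 3 changed sign. All 3 were Pcna in ct, whose difference of 0.00 became -0.09 without ct replicate 2, -0.01 without ct replicate 4 and -0.12 without CBA replicate 1, within a range of -0.12 to 0.11 over single arrays left out. Rfc4 in the 5 effects was called in 41 of 49 alternatives (limma adjusted p 0.0047 to 0.113). It was not called with quantile scaling (0.0828), median centring (0.0725), no filter (0.0522) or every probe set (0.0574). The cause was not tested. Weak signal limits the 8 genes near background most.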
